A study of Mus musculus with 3 samples.

Results

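The genes described here encode the cytosolic factors that start and extend protein chains. They were taken by name, as every probe whose gene symbol in the platform annotation starts with Eif or Eef followed by a number, which gave 95 of 25697 probes and 58 of 16593 named genes. RNA came from 4T1 cells that carried GFP and had been placed in the mammary pad of female BALB/c mice of 10 to 12 weeks, per the design text and the labels. 4T1 is a mammary carcinoma line from the same mouse strain. Cells purified by FACS gave 3 groups, circulating cancer cells (CCC), cancer cells from metastatic lung (MCC) and cancer cells from the primary tumour (PCC). All groups share the line, the GFP label, the sex and the host strain, and the labels name no treatment. Each group has 1 array, and the number of mice it represents is unknown here. There is therefore no spread between replicates and no p-value between groups, and each difference compares arrays that carry a label.

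Translation starts when eIF2, loaded with GTP and the initiator tRNA, joins the small ribosomal subunit together with eIF1, eIF1A, eIF3 and eIF5. The eIF4F complex, made of the cap-binding protein eIF4E, the scaffold eIF4G and the helicase eIF4A, brings the messenger RNA, and the 4E-BP proteins block it by holding eIF4E. Elongation needs eEF1A to deliver aminoacyl-tRNA and eEF2 to move the ribosome along. Kinases of eIF2 alpha slow initiation under stress, and mTORC1 acts on the 4E-BPs. Much of this control is on proteins and is not measured by an RNA array.

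Probe intensities are given on a log2 scale after background correction and quantile normalization, and a probe counted as detected at a detection p-value under 0.01. A gene is represented by its brightest detected probe. Of the 58 factor genes, 44 were detected on all 3 arrays, 1 on 2 arrays, 1 on 1 array and 12 on none. Between 41.0% and 44.6% of all probes were detected on an array, and mean deposited intensity was 462 on CCC, 232 on MCC and 410 on PCC. Levels of different probes cannot be set against each other, so each gene is compared only with itself.

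The sorted cells carried markers of carcinoma and of other cells. Of 5 measured epithelial markers, 3 were detected on CCC, 5 on MCC and 4 on PCC, and their summed normalized intensity was 6397 on CCC, 8026 on MCC and 6168 on PCC. On MCC minus PCC the keratin gene Krt8 was at -0.83, Krt18 at 1.16, Cdh1 at 2.11 and Cldn4 at 4.68, and Krt14 was detected only on MCC. Of 8 measured lymphocyte markers, 7 were detected on CCC, 8 on MCC and 4 on PCC, and their summed normalized intensity was 3322 on CCC, 24745 on MCC and 576 on PCC. Of 6 adipocyte markers, 1 was detected on CCC, 5 on MCC and 0 on PCC, with sums of 181, 29950 and 49.4 in the same order. The macrophage sum was 23872 on CCC, 9926 on MCC and 4703 on PCC, with 9, 8 and 9 of 9 genes detected. Of the 8 macrophage genes detected on MCC and PCC, 5 were lower on MCC, with a median of -0.50, and Lyz2 was highest at 3.24. Endothelial markers summed to 2625 on CCC, 11196 on MCC and 1341 on PCC, with 7, 7 and 5 of 8 genes detected. Fibroblast markers summed to 11540 on CCC, 18484 on MCC and 11305 on PCC, with 8, 8 and 6 of 8 genes detected, and neutrophil markers to 2575, 4200 and 3986 in that order, with 4 of 8 on each array. On MCC the neutrophil genes parted, with S100a8 28.4-fold and S100a9 29.6-fold lower and Ltf 51.5-fold higher than on PCC. The fibroblast genes parted as well. Of 6 detected on CCC and PCC, 3 were higher on CCC, each by at least 2-fold, and 3 lower, with a median of 0.98. On MCC minus PCC 5 were higher and 1 lower, from -2.74 for Pdgfra to 4.75 for Thy1. The lung epithelial genes were detected as 0, 2 and 0 of 6, and red cell genes as 1, 2 and 2 of 3. Adipoq and Ms4a1 were undetected on CCC and PCC, and Cd79a, Cd79b and Cd2 on PCC. The lymphocyte, adipocyte and endothelial sums were highest on the array labelled MCC, and the macrophage sum on CCC. Their part in the values below was not tested, and in sorted bulk RNA fewer cells of a type and less RNA per cell cannot be told apart.

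Most factor genes lay close together on the circulating and primary tumour arrays, whereas the metastatic array stood off from both. All genes shared this pattern, so it is not particular to the factor genes. On CCC against PCC, 1 of 45 genes was at least 2-fold higher and 0 were lower, beside 4.95% higher and 3.68% lower among all 7286 genes detected on both arrays. By any size 20 were higher, 44.4% against 40.5% of all genes. The median log2 difference of the factor genes was -0.02, against -0.10 over all genes. On MCC against PCC, 3 of 44 were at least 2-fold higher and 8 lower, beside 14.2% and 21.1% among all 6829 genes. These shares of 6.82% and 18.2% do not exceed the background. Only 14 of the 44 were higher by any size, 31.8% against 43.4% of all genes, and their median was -0.36, against -0.16 over all genes. On CCC against MCC, 12 of 44 were at least 2-fold higher and 2 lower, 27.3% and 4.55%, beside 16.6% and 17.3% of all 7313 genes. The 12 were Eef1e1, Eef1akmt1, Eif3c, Eif1a, Eif3l, Eef2, Eif2ak2, Eif4ebp1, Eif4b, Eif6, Eif4g2 and Eif3a, and the 2 were Eif4ebp2 and Eif4e3. By any size 28 were higher, 63.6% against 49.4% of all genes. The last comparison follows from the other pairs, since all 3 arrays are shared among them.

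**Figure D1:**
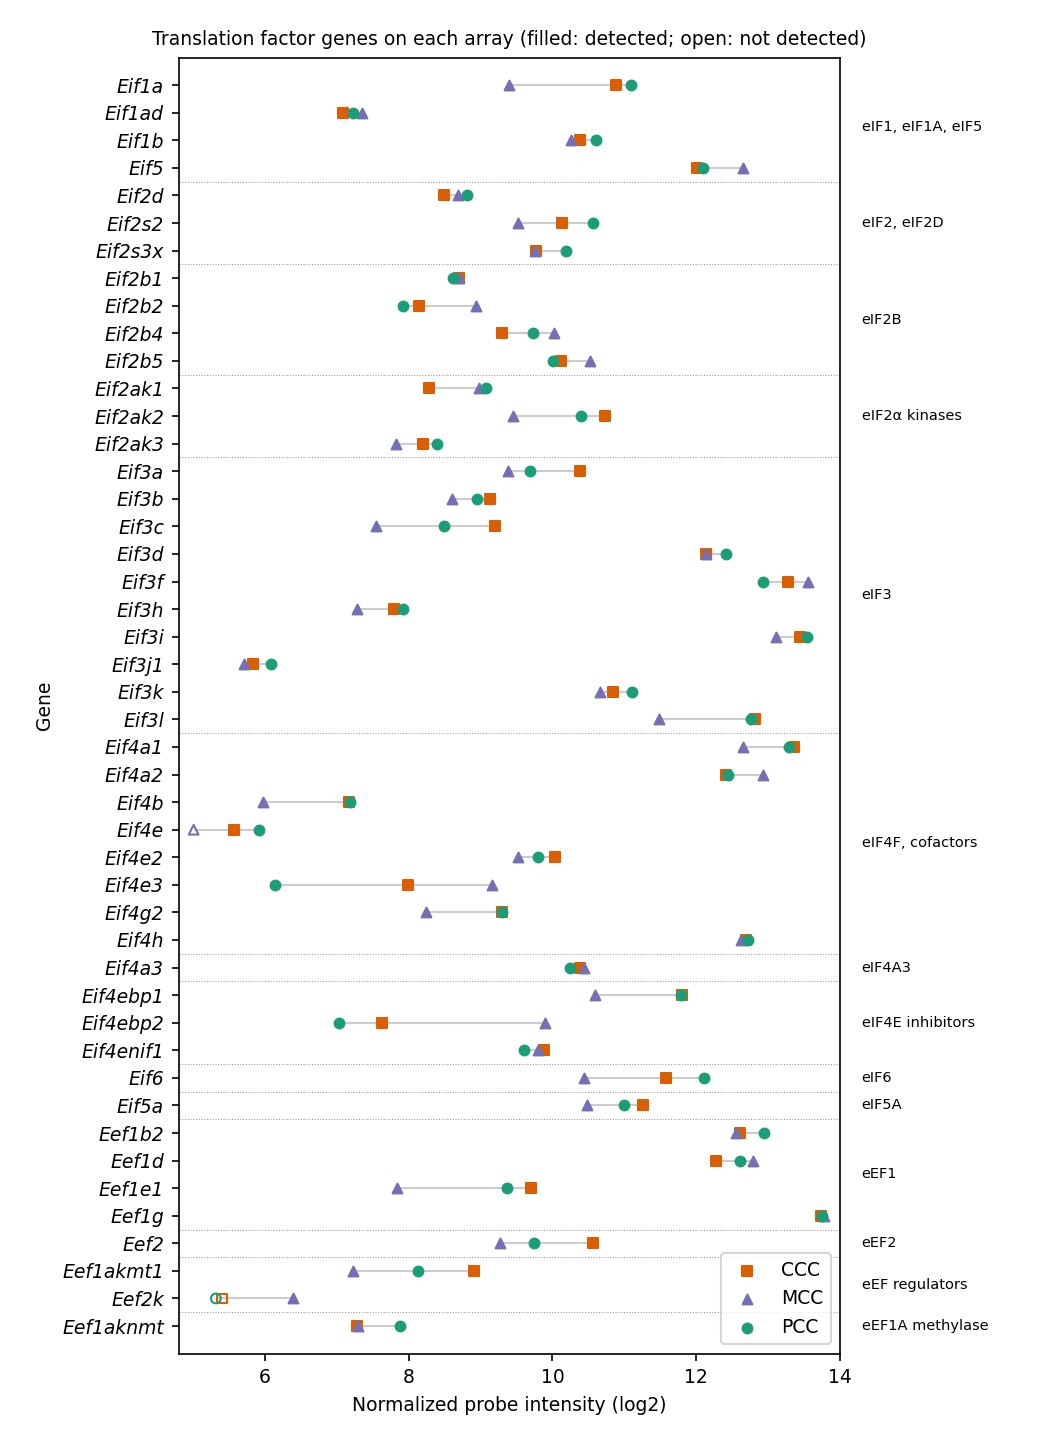
Normalized log2 intensity (x axis) of the 46 detected factor genes (y axis), grouped by complex, on the arrays labelled CCC (squares), MCC (triangles) and PCC (circles), 1 array each. Open symbols mark genes not detected on that array; Eif4e3 and Eif4ebp2 have their MCC value far to the right of PCC, while Eif1a, Eif6 and Eef1e1 have it to the left.

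The widest differences of the factor genes on MCC minus PCC were those of Eif4e3 and Eif4ebp2, both higher, and both genes act at the cap-binding step. Eif4e3 encodes a cap-binding relative of eIF4E. Its log2 intensity was 8.0 on CCC, 9.16 on MCC and 6.14 on PCC, so that CCC was 3.63-fold and MCC 8.12-fold higher than PCC, and CCC was 2.23-fold lower than MCC. It was the highest of the factor genes on both arrays set against PCC, and 144 of 6829 genes had a larger difference on MCC minus PCC. Its other 2 probes were not detected on PCC, with detection p-values of 0.0902 and 0.907 there. They gave 6.79 and 5.47 on CCC, 7.82 and 7.34 on MCC, and 5.13 and 4.43 on PCC, the same order of arrays. All 3 probes were thus brightest on MCC and dimmest on PCC. The PCC value of the main probe lay near the lowest detected intensity of that array, 5.88, so the sizes of its folds are uncertain.

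Eif4ebp2 encodes 4E-BP2, a translational repressor that binds eIF4E. It was measured at 7.63 on CCC, 9.90 on MCC and 7.03 on PCC, 1.51-fold higher on CCC and 7.30-fold higher on MCC than on PCC. Its deposited intensity was also highest on MCC, at 591, against 232 on CCC and 113 on PCC, although MCC had the lowest mean intensity of the arrays. Eif4ebp1 encodes the sister repressor 4E-BP1 and did the opposite. It stood at 11.80 on CCC, 10.59 on MCC and 11.78 on PCC, 2.29-fold lower on MCC than on PCC and 1.01-fold higher on CCC. The gap between both 4E-BP genes on MCC minus PCC, 2.87 for Eif4ebp2 and -1.20 for Eif4ebp1, comes from 1 probe each. Eif4enif1 encodes 4E-T, which carries eIF4E to the nucleus and to processing bodies, and it was near level at 9.89 on CCC, 9.80 on MCC and 9.61 on PCC. The third repressor gene, Eif4ebp3, was detected on no array.

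Eif4e itself, the canonical cap-binding protein, was dim. Its log2 intensity was 5.57 on CCC, 5.01 on MCC and 5.93 on PCC, and on MCC it was not detected, with a detection p-value of 0.0639. MCC was at least 1.25-fold lower than PCC, a bound set by the lowest detected intensity on MCC. Eif4e2, which encodes the 4EHP cap-binding repressor, read 10.04 on CCC, 9.52 on MCC and 9.80 on PCC by its brightest probe. A dimmer Eif4e2 probe gave a wider gap, at 7.67 on CCC, 6.46 on MCC and 7.65 on PCC. The third Eif4e2 probe was at 6.75 on CCC and 6.67 on PCC, and on MCC it was not detected, with a value of 5.01. Eif4e1b, a relative made mainly in oocytes, was detected on no array. The cap-binding genes thus did not move as 1 group on MCC.

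Among the other parts of eIF4F, the helicase genes Eif4a1 and Eif4a2 also parted. Eif4a1 had 13.35 on CCC, 12.64 on MCC and 13.29 on PCC, and its 2 probes gave -0.85 and -0.64 on MCC minus PCC. Eif4a2 had 12.41 on CCC, 12.92 on MCC and 12.44 on PCC, a difference of 0.49 on MCC minus PCC that became -0.05 with its second probe and -0.57 without normalization between arrays. Relative to the median of all genes, Eif4a2 stayed between 0.19 and 0.65 above it and Eif4a1 between 0.48 and 0.98 below it in every processing tried for MCC minus PCC. The helicase cofactor gene Eif4b was at 7.17 on CCC, 5.98 on MCC and 7.18 on PCC, 2.30-fold lower on MCC than on PCC. Its MCC value lay near the lowest detected intensity of that array, 5.60. Across every processing tried, the Eif4b difference ran from -1.41 to -0.88, so it did not always reach 2-fold. Eif4g2, which encodes the eIF4G relative DAP5 that works without eIF4E, was at 9.29 on CCC, 8.25 on MCC and 9.30 on PCC, 2.08-fold lower on MCC. A dimmer Eif4g2 probe gave -0.66 on CCC minus PCC and -1.37 on MCC minus PCC. The second helicase cofactor, Eif4h, differed by no more than 1.06-fold between any arrays. Eif4a3, the helicase of the exon junction complex, stayed within 1.14-fold. The scaffold genes Eif4g1 and Eif4g3 were not analysed here.

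The exchange factor eIF2B reloads eIF2 with GTP. Among the groups with more than 1 measured gene, it was the one with all measured genes higher on MCC than on PCC by the brightest probes. The 4 genes were Eif2b1, Eif2b2, Eif2b4 and Eif2b5, with differences of 0.08, 1.01, 0.29 and 0.51 and a median of 0.40. The subunit gene Eif2b3 was not analysed here. Eif2b2 led at 8.15 on CCC, 8.94 on MCC and 7.93 on PCC, 2.02-fold higher on MCC than on PCC and just past the 2-fold size. On CCC minus PCC the same genes gave 0.09, 0.22, -0.43 and 0.11. The direction on MCC depends on the scale. Without normalization between arrays the median of the 4 genes was -0.44, which was still 0.32 above the median of all genes. Under 75th percentile scaling it was 0.10, or 0.36 above all genes. On MCC minus PCC a second Eif2b1 probe gave -0.45 and a dimmer Eif2b5 probe -0.01.

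Its substrate eIF2 ran the other way. Eif2s2, the beta subunit, was measured at 10.13 on CCC, 9.52 on MCC and 10.56 on PCC, 1.35-fold lower on CCC and 2.06-fold lower on MCC than on PCC. Its second probe had a difference of -1.71 on MCC minus PCC. Eif2s3x, the gamma subunit, had 9.77 on CCC, 9.75 on MCC and 10.19 on PCC, 1.34-fold and 1.36-fold lower than PCC. Eif2d, which encodes a factor that can deliver initiator tRNA without eIF2, was at 8.49 on CCC, 8.69 on MCC and 8.82 on PCC. All 3 genes were lower on CCC and on MCC than on PCC, by less than 2-fold except for Eif2s2 on MCC, by the brightest probes. A dimmer Eif2d probe gave -1.24 on MCC minus PCC, where the main probe gave -0.13. The Y-linked gamma subunit gene Eif2s3y was detected on no array, with detection p-values of 0.717 on CCC, 0.635 on MCC and 0.713 on PCC. The alpha subunit gene Eif2s1, target of the stress kinases, was not analysed here.

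All 3 measured kinases of eIF2 alpha were lower on MCC than on PCC, with a median of -0.57 against -0.16 over all genes, and on CCC 1 was higher and 2 were lower than on PCC. The smallest of the MCC differences, -0.10 for Eif2ak1, ran from -0.08 to 0.10 relative to the median of all genes across the settings. Eif2ak2 encodes PKR, which is activated by double-stranded RNA. It stood at 10.74 on CCC, 9.45 on MCC and 10.40 on PCC, 1.27-fold higher on CCC and 1.94-fold lower on MCC than on PCC. Eif2ak1 encodes the heme-regulated kinase HRI, and it was lowest on CCC, at 8.28, against 8.98 on MCC and 9.07 on PCC, 1.73-fold lower on CCC than on PCC. Eif2ak3 encodes PERK, the kinase of the endoplasmic reticulum, and read 8.19 on CCC, 7.82 on MCC and 8.39 on PCC. Eif2ak4, which encodes the amino acid sensor GCN2, was detected on no array. Eif2ak1 on CCC was the lowest of all 45 factor genes against PCC.

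Most listed target and phosphatase genes of the eIF2 kinase response were lower than on PCC, and their medians lay below those of the kinases. Of 12 measured target and phosphatase genes, 9 were lower on CCC than on PCC, 5 of them by at least 2-fold, with a median of -0.77 against -0.10 over all genes. The other 3 were higher on CCC, by at most 0.18. On MCC 9 genes were detected on both arrays and all 9 were lower than on PCC, 7 by at least 2-fold. Their median was -1.36, against -0.16 over all genes. Among all genes 3.68% were at least 2-fold lower on CCC than on PCC, and 21.1% on MCC. All 12 genes were detected on CCC and on PCC, but only 9 on MCC. Ppp1r15a encodes GADD34, the subunit that directs the phosphatase to eIF2 alpha, and it was at 7.22 on CCC, 8.32 on MCC and 9.28 on PCC. Slc7a11, the cystine transporter gene, was at 7.84 on CCC, 6.58 on MCC and 9.56 on PCC. Asns, asparagine synthetase, kept to 11.24 on CCC against 11.05 on PCC, and was at 9.69 on MCC.

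The scaffold eIF3 was lower on MCC in most of its genes by small amounts. Of 10 measured subunits 9 were lower on MCC than on PCC and 1 was higher, where 43.4% of all genes were higher. Their median was -0.40, against -0.16 over all genes. By at least 2-fold 1 subunit was lower, beside 21.1% of all genes. That was Eif3l at 12.82 on CCC, 11.49 on MCC and 12.77 on PCC, 2.43-fold lower on MCC than on PCC, and its second probe gave -0.96. Eif3c, of the core, was at 9.20 on CCC, 7.54 on MCC and 8.49 on PCC, 1.64-fold higher on CCC and 1.92-fold lower on MCC than on PCC. Eif3a, the largest subunit, had 10.39 on CCC, 9.38 on MCC and 9.69 on PCC. Eif3a and Eif3c thus were higher on CCC, whereas a dimmer Eif3a probe gave -0.14 on CCC minus PCC. Eif3f was the exception on MCC, at 13.27 on CCC, 13.56 on MCC and 12.92 on PCC, 1.56-fold higher on MCC than on PCC. The other measured subunits, Eif3b, Eif3d, Eif3h, Eif3i, Eif3j1 and Eif3k, lay between -0.65 and -0.28 on MCC minus PCC. Eif3d had the same value of 12.13 on CCC and MCC. Eif3e and Eif3m were not detected on any array.

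**Figure D2:**
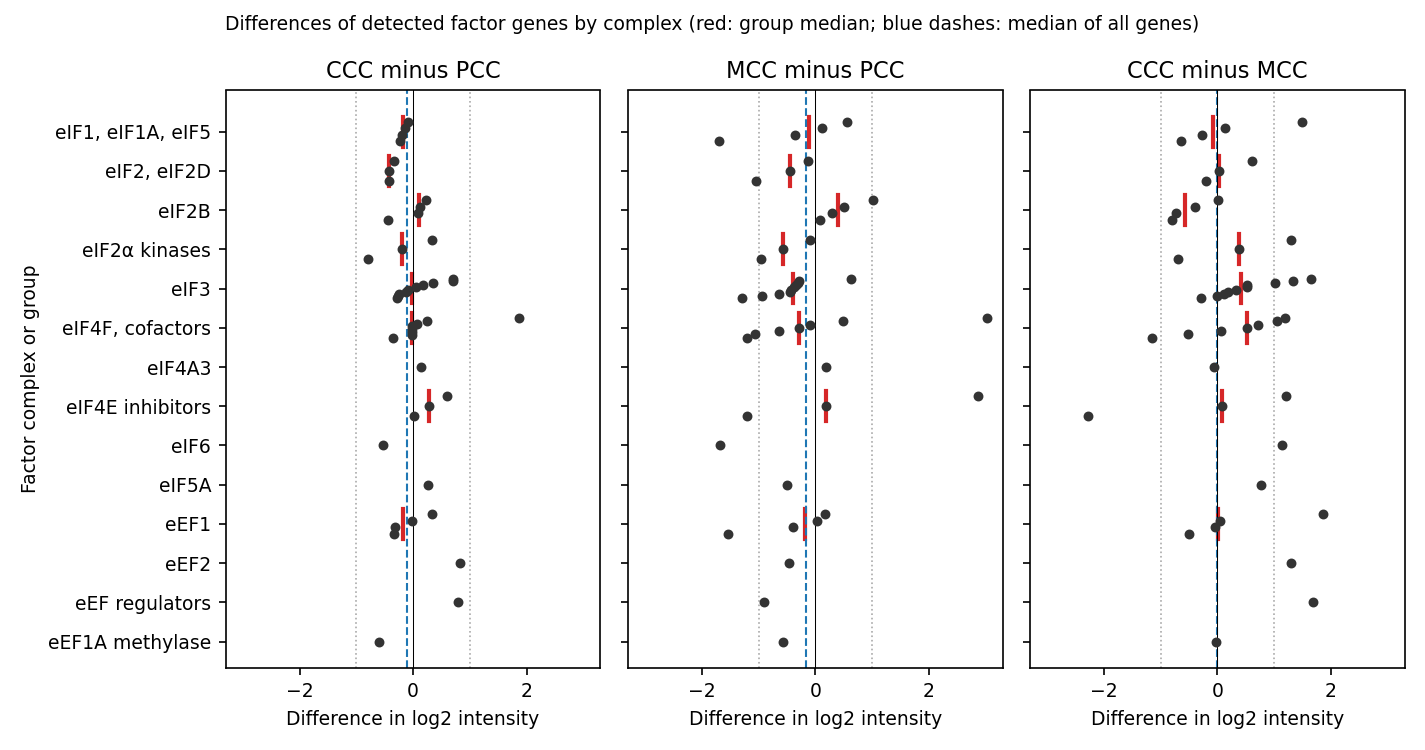
Difference in log2 intensity (x axis) of each factor gene detected on both arrays, by complex (y axis), in 3 panels, one per pair of arrays. Points are genes, red bars are medians of groups with more than 1 gene, blue dashes the median of all genes (-0.10, -0.16 and -0.01) and dotted lines 2-fold; eIF2B lies to the right and eIF3 mostly to the left on MCC minus PCC.

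Among the factors that scan for the start codon, Eif1a had the lowest difference of all factor genes on MCC. It encodes eIF1A and was measured at 10.89 on CCC, 9.40 on MCC and 11.09 on PCC, 3.23-fold lower on MCC than on PCC and 1.15-fold lower on CCC. Its near copy Eif1ax was detected on no array, and whether the Eif1a probe also binds Eif1ax RNA was not tested. Eif1b, a relative of eIF1, was at 10.38 on CCC, 10.25 on MCC and 10.61 on PCC, and Eif1ad, an eIF1A-domain gene, stayed within 1.20-fold across the arrays. Eif5, the GTPase-activating factor for eIF2, was at 12.01 on CCC, 12.65 on MCC and 12.10 on PCC by its brightest probe. Its 3 probes ran from -0.37 to 0.56 on MCC minus PCC, so no direction can be given for Eif5.

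Eif6 was the next lowest on MCC. It encodes the factor that holds the large subunit apart from the small one until it is needed, and stood at 11.58 on CCC, 10.44 on MCC and 12.11 on PCC. MCC was 3.18-fold lower and CCC 1.45-fold lower than PCC. Eif5b, which joins the subunits, was detected on no array by either of its probes. Eif5a, the hypusine-carrying factor that helps ribosomes over difficult stretches, was at 11.25 on CCC, 10.48 on MCC and 10.99 on PCC. Its second probe was at 11.02 on CCC, 8.69 on MCC and 9.88 on PCC. Both Eif5a probes had the order CCC, PCC, MCC from high to low, but CCC minus PCC was 0.26 by one and 1.14 by the other. Eif5a2 was not detected.

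Among the measured genes grouped as eEF1, 1 of 4 was at least 2-fold lower on MCC than on PCC by its brightest probe, Eef1e1. The share among all genes was 21.1%. Eef1g, which anchors the exchange complex of eEF1A, was level within 1.03-fold, at 13.73 on CCC, 13.77 on MCC and 13.75 on PCC. Eef1b2, its nucleotide exchange subunit, was at 12.61 on CCC, 12.56 on MCC and 12.95 on PCC. The 3 Eef1b2 probes ran from -0.60 to 0.01 on CCC minus PCC and from -0.85 to -0.18 on MCC minus PCC, so Eef1b2 was lower on MCC by each of them. Eef1d, the second exchange subunit, was at 12.28 on CCC, 12.79 on MCC and 12.61 on PCC. A dimmer Eef1d probe was at 7.68 on CCC, 5.88 on MCC and 7.61 on PCC, so that its difference on MCC minus PCC was -1.73 where the main probe gave 0.18. Eef1e1 encodes a scaffold of the multi-synthetase complex in place of an elongation step, and was at 9.70 on CCC, 7.84 on MCC and 9.37 on PCC, 2.89-fold lower on MCC than on PCC.

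Eef2, the translocase, was higher on CCC by all 3 of its probes. The brightest read 10.57 on CCC, 9.27 on MCC and 9.74 on PCC, 1.78-fold higher on CCC and 1.38-fold lower on MCC than on PCC. The 3 probes spanned 0.37 to 0.83 on CCC minus PCC and -0.65 to -0.47 on MCC minus PCC. The kinase gene Eef2k, whose product halts eEF2, was detected only on MCC. Its probe was at 5.40 on CCC, 6.39 on MCC and 5.32 on PCC, at least 1.42-fold higher on MCC than on PCC and, on CCC, at least 1.80-fold lower than on MCC. Eef2 and its kinase thus were in opposite order on MCC and PCC. On CCC the detection p-value of Eef2k was 0.0226, which counts as detected at 0.05.

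The eEF1A genes could not be read. The single Eef1a1 probe had detection p-values of 0.283 on CCC, 0.447 on MCC and 0.0827 on PCC, although Eef1a1 is one of the most abundant messenger RNAs of most cells, and its 3 relatives on the array, all of Eef1a2, were also undetected. No statement on eEF1A follows from this probe. The methyltransferase genes that modify eEF1A were measured. Eef1akmt1 was at 8.92 on CCC, 7.23 on MCC and 8.13 on PCC, 1.72-fold higher on CCC and 1.87-fold lower on MCC than on PCC. Eef1aknmt was at 7.28 on CCC, 7.30 on MCC and 7.88 on PCC, 1.51-fold and 1.49-fold lower than PCC. Eef1akmt2 was not detected.

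Several probes for 1 gene gave a check within the arrays. Of 16 factor genes with several probes detected on MCC and PCC, 11 had the same sign by all probes and 2, Eif2d and Eef1d, had probes over 1 log2 unit apart, beside 12.9% of all 1560 such genes. In 13 of the 16 the brightest probe, which represents the gene, had the highest difference, 81.2% against 56.9% of all such genes. The medians given here therefore lie toward the upper end for MCC minus PCC, and with the mean of a gene's probes the factor median was -0.46, against -0.19 over all genes.

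**Figure D3:**
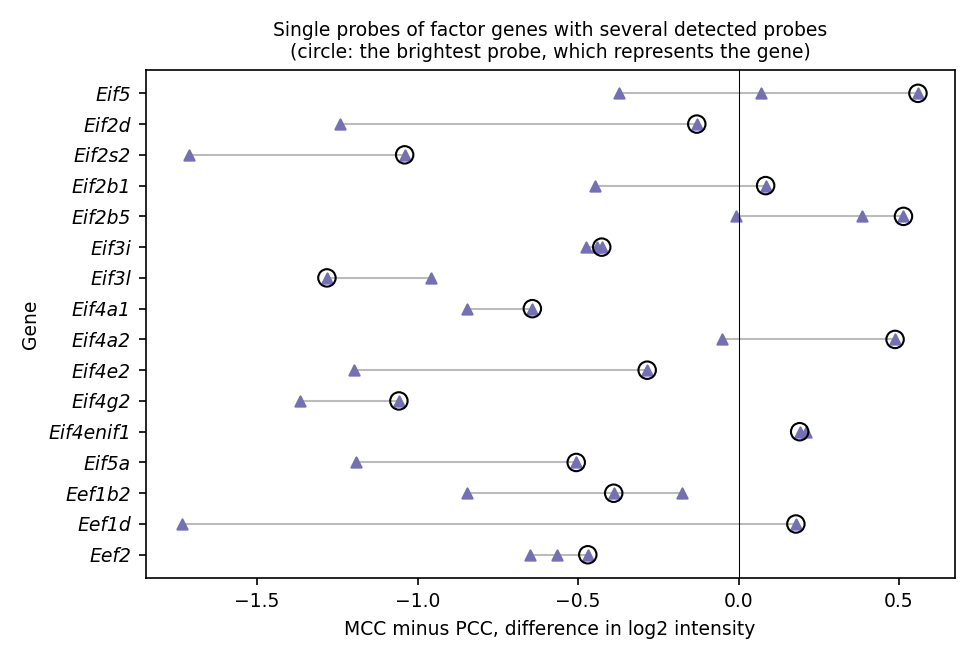
MCC minus PCC difference in log2 intensity (x axis) of every probe detected on both arrays, for the 16 factor genes with more than 1 such probe (y axis). Triangles are probes and circles mark the brightest probe, which has the highest difference in 13 of the 16 genes; Eef1d has the widest gap, from -1.73 to 0.18.

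Promoters of the factor genes were read for letters they share. The sequences are from RefSeq (GRCm38.p6), which held 59 start windows for 45 of the 58 genes, and the 250 bases before each start were searched on both strands for CACGTG, the E-box that MYC and related factors bind, and for CCGGAAGT, a core of ETS factor sites. The E-box was present in 11 of 45 genes, 24.4%, against 9.86% of 7353 genes that were detected on an array and have a window, and 6.86% of all 27025 genes with a window. By window the shares were 22% and 6.02% of all 32851. The same site can lie in several windows of a gene, as in Eif5a, and then counts more than once. The 11 genes were Eef1aknmt, Eef2, Eef2k, Eif1b, Eif3f, Eif3k, Eif4a1, Eif4e, Eif4h, Eif5a and Eif5a2. CCGGAAGT was in 5 of the 45 genes, 11.1%, against 6.69% of detected genes and 3.23% of all genes with a window. The 45 include factor genes detected on no array, such as Eif5a2, so the detected genes are not a like set. A gene with several windows had more chances of a match, and a match is not a bound site.

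The windows below are shown because they belong to genes described above, Eef2 and Eif4a1, lower on MCC than on PCC, Eif3f and Eif4ebp2, higher there, and Eif4e, not detected on MCC. Capitals mark CACGTG, and bases run 5′ to 3′ on the gene's strand. The last sequence has no match and is the 60 bases before the start of Eif4ebp2.
Eef2, chr10:81176566-81176615, plus strand: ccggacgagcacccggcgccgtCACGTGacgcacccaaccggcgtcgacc
Eif4a1, chr11:69672585-69672634, minus strand: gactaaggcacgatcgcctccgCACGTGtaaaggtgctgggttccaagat
Eif3f, chr7:108934325-108934374, plus strand: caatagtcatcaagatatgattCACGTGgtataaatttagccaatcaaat
Eif4e, chr3:138527182-138527231, plus strand: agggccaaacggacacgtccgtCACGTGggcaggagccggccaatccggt
Eif4e, chr3:138527018-138527067, plus strand: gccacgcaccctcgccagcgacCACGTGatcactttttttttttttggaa
Eif4ebp2, chr10:61452670-61452729, minus strand: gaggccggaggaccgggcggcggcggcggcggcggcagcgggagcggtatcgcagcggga

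The E-box lies 43 bases before the annotated start in Eef2, 189 in Eif4a1, 68 in Eif3f, and 64 and 228 before one of the starts of Eif4e. Factor genes with the E-box had a median of -0.46 on MCC minus PCC over 8 genes, and those without it -0.28 over 26 genes, a difference that was not tested. Myc itself was at 5.66 on CCC and 6.83 on PCC, 2.26-fold lower on CCC, and was not detected on MCC. On CCC minus PCC the measured factor genes with the E-box ran both ways, from -0.59 for Eef1aknmt to 0.83 for Eef2. Any relation of Myc to these genes was not tested.

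Other genes of translation, taken from lists, differed in their own ways. Among 14 termination, recycling and cofactor genes detected on both arrays, 9 were lower and 5 higher on MCC than on PCC. Their median was -0.55, against -0.16 over all genes, of which 43.4% were higher. Paip1, which links the poly(A)-binding protein to eIF4A, was lowest at 7.64 on CCC, 5.90 on MCC and 7.69 on PCC. Mif4gd, a partner in the translation of histone messenger RNA, was highest, at 10.00 on CCC, 11.52 on MCC and 9.20 on PCC. Of 12 genes of mTORC1 and MNK signalling on the same pair, 8 were higher, with a median of 0.25, beside the same 43.4% and -0.16 over all genes. The count gives no direction of signalling. The eIF4E kinase gene Mknk2 was 3.40-fold higher on MCC than on PCC, at 11.53 against 9.77, and Rheb, the activator of mTORC1, was 2.59-fold lower, at 9.81 against 11.18. Mitochondrial translation factors had a median of -0.09 over 9 genes, with the elongation factor gene Tufm highest, at 11.25 on MCC and 10.19 on PCC. Genes of the MYC and ribosome biogenesis list had a median of -1.12 over 8 genes on MCC minus PCC and 0.00 over 9 on CCC minus PCC, and proliferation genes -3.11 and -0.13 over 7. The lower factor genes on MCC thus stood beside lower proliferation genes on the same array, and their part in the result was not tested.

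**Figure D4:**
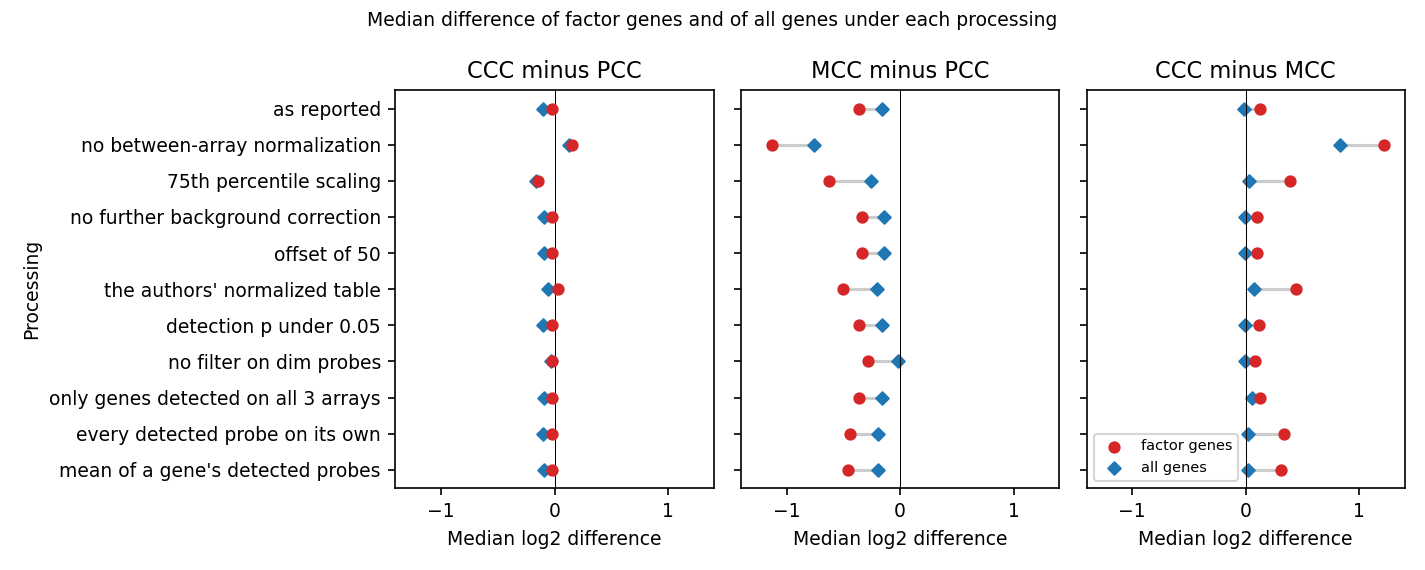
Median log2 difference (x axis) of the factor genes (circles) and of all genes (diamonds) under each processing (y axis), in 3 panels, one per pair of arrays. On MCC minus PCC the factor median lies 0.19 to 0.37 below that of all genes under each of the 11 settings, while on CCC minus PCC it lies 0.01 to 0.09 above.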

How the data were processed

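The authors deposited probe intensities and detection p-values for 3 arrays, per the file headers, and the submitters' processing notes name GenomeStudio. Deposited intensities are negative for 24.0% to 28.3% of probes, as background-subtracted values can be. A second deposited intensity table is a straight line of each array's values (slopes 0.865 on CCC, 1.53 on MCC and 0.926 on PCC, medians 32.0, 35.1 and 42.9), on a linear scale and not centred, and its method is not stated. Background correction (offset 16), quantile normalization and log2 used neqc in limma 3.58.1 (R 4.3.3), and Python 3.11.15 did the rest. Symbols came from the platform annotation, where 1719 probes are unnamed here, and all 95 factor probes matched the reference table. Counts use genes detected on both arrays. Where a gene was detected on only 1 array of a pair, a lower bound was set from the higher of the other array's lowest detected intensity and the gene's own value there. The counting was tested on simulated data. Any factor gene could be named, and from each other list the highest and lowest gene per pair, with marker genes beside them; the values of single markers were chosen after they were seen. Factor genes and lists were chosen with earlier results of these data known.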

Additional observations from a re-analysis of the deposited data

How the results depend on the processing

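No paired analysis was possible because each group has 1 array, and no array could be left out. Without normalization between arrays, 3 factor genes were at least 2-fold higher on CCC than on PCC (median 0.15), 26 were lower on MCC than on PCC (median -1.13), and on CCC against MCC 26 were higher and 1 lower (median 1.22); all genes had medians of 0.13, -0.75 and 0.83. The medians were -0.14, -0.63 and 0.39 under 75th percentile scaling for the same pairs in that order. With the authors' table MCC minus PCC was -0.50 and CCC minus MCC 0.44. Counting every probe gave 2 higher on CCC than on PCC, 14 lower on MCC than on PCC and a CCC minus MCC median of 0.34, or 0.31 with the mean of a gene's probes. An offset of 50 lowered the counts past 2-fold, to 6 lower on MCC than on PCC and 9 higher on CCC than on MCC. Leaving out further background correction gave the same 6 and 9. With no filter on dim probes the elongation regulators on CCC minus MCC were at -0.10, where Eef1akmt2 and Eef2k enter beside Eef1akmt1. Of all genes past 2-fold, the share that was higher was 57.4%, 40.2% and 49.0% in that order, and 82.4%, 14.7% and 88.1% without normalization between arrays. Of the medians of complexes 375 of 420 alternatives moved by less than the spread between probes of a gene, and of single genes 516 of 575.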

Other observations

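The deposited intensities of the detected factor genes summed to 145621 on CCC, 61850 on MCC and 135378 on PCC, and after normalization to 115250, 104121 and 117857 in the same order. Of the Eif3 genes on CCC minus MCC, 8 of 10 were higher and 3 reached 2-fold, beside 49.4% and 16.6% of all 7313 genes, Eif3c at 3.15-fold, Eif3l at 2.52-fold and Eif3a at 2.02-fold.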
